A study of Mus musculus with 7 samples.

Results

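VIP interneuron nuclei were taken from single-nucleus RNA-Seq (snRNA-Seq) of mouse visual cortex by a rule on 3 genes. A nucleus was kept when it held more than 200 UMIs outside the viral barcodes, a UMI (unique molecular identifier) being the count of 1 captured transcript. It was called a VIP nucleus when it held at least 2 UMIs of Vip, at most 2 of Sst and 0 of Slc17a7, the gene of the vesicular glutamate transporter of cortical excitatory neurons. The rule found 415 VIP nuclei among 32335 kept nuclei, a share of 1.28% (exact binomial 95% interval 1.16 to 1.41%). Since Vip, Sst and Slc17a7 chose the nuclei, their levels are a description and support nothing else.

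The snRNA-Seq sample came from V1 of C57BL/6J mice of 6 to 10 weeks that had received the SST PESCA virus, an AAV9 library of 287 gene regulatory elements (GREs). Each GRE was placed before a minimal promoter and a GFP transcript that carried 1 of 3 barcodes of that GRE, and the GREs had been picked for chromatin more open in SST interneurons than in PV and VIP interneurons. Nuclei were captured on the inDrops platform as 1 sample in 10 libraries, here called 1-1 to 1-5 and 2-1 to 2-5 (library sets 1 and 2). ATAC-Seq, which measures open chromatin, was made from 6 samples of whole cortex of uninjected mice of 6 to 12 weeks, 2 samples for each of VIP, SST and PV interneurons. Those mice carried Vip-IRES-Cre, Sst-IRES-Cre or Pv-Cre together with the Cre-dependent nuclear tag SUN1-2xsfGFP-6xMYC, and tagged nuclei were purified with an antibody against GFP. Each ATAC-Seq population is thus made of the cells in which the driver was ever active, and every group in it carries the tag. By the study's methods the nuclei came from 2 animals with 5 libraries each, but the labels give 1 sample and tie no library to an animal, so differences between groups of nuclei carry no test. Their intervals are 95% intervals that cover counting error only, and spread is shown over the 10 libraries.

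VIP interneurons are inhibitory neurons that make the peptide vasoactive intestinal peptide along with GABA. They arise in the caudal ganglionic eminence of the embryonic forebrain, whereas SST and PV interneurons arise in the medial one. In the cortex they are known for contacting other interneurons, SST cells above all, so that their firing releases excitatory neurons from inhibition. They are also known to respond to acetylcholine and serotonin and to differ among themselves in the calcium-binding protein calretinin (Calb2) and the peptide cholecystokinin (Cck).

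The 415 VIP nuclei were spread over the libraries, with 36 nuclei in the poorest, a median of 41 and 53 in the richest, or 1.10 to 1.61% of the kept nuclei of a library. Their median depth was 651 UMIs (quartiles 420.5 and 935, range 208 to 5742), against 713 UMIs in the 31920 other kept nuclei. VIP nuclei were compared with all other nuclei and with 1814 other inhibitory nuclei (at least 2 UMIs of Gad1 and Gad2 together, 0 of Slc17a7, at most 1 of Vip; median depth 1091 UMIs). Gad1 and Gad2 chose that group, so its levels of them are set by its rule. SST, PV, NPY and excitatory nuclei, chosen by Sst, Pvalb, Npy or Slc17a7, numbered 746, 297, 357 and 1844. Cell barcodes were shared between libraries: the kept nuclei held 25866 distinct barcodes, of which 5476 occurred in more than 1 library. Of the VIP nuclei, 130 had a barcode that was also kept in another library. Among VIP nuclei alone, 22 barcodes marked nuclei in more than 1 library. VIP nuclei were 1.28% of kept nuclei, and the overlap expected by chance was not computed. Whether the same nucleus was read in more than 1 library was not tested. All intervals, counts of libraries and ranges over libraries take the 415 nuclei and the 10 libraries as separate. Each of these would be too sure if the same nuclei recurred across libraries.

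Vip itself stood at a median of 8 UMIs per VIP nucleus (quartiles 4 and 13, highest 48), and the nucleus with most held 1.22% of the Vip UMIs. At the edge of the rule, the 41 nuclei with 2 UMIs of Vip had 17.1 UMIs of Gad1 per 10000 non-viral UMIs, and the 374 nuclei with 3 or more had 18.0. The 155 nuclei just outside, with 1 UMI of Vip, had 5.38 of Gad1. The nuclei just inside had 7.11 per 10000 of Crh, against 17.8 in those with 3 or more UMIs of Vip and 2.11 in those just outside. Their Gad2 was 4.60, against 9.42 and 4.06, and their Htr3a 4.18, against 4.25 and 0.936. Nrgn, an excitatory marker, was 11.7 just inside, 5.99 with 3 or more UMIs and 15.7 just outside. At least 1 UMI of Gad1 or Gad2 was found in 56.1%, 73.5% and 29.0% of these nuclei. Among those with 3 or more, the 33 nuclei with exactly 3 UMIs had 8.91 of Gad1 and 10.5 of Gad2, and 60.6% held either. A further 22 nuclei with at least 2 UMIs of Vip were left out for Slc17a7 and 5 for Sst. In barcodes with at most 200 UMIs Vip was found in 0.646%, at 0.945 per 10000.

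VIP nuclei carried the genes of GABA neurons. At least 1 UMI of Gad1 or Gad2, the enzymes that make GABA, was found in 298 VIP nuclei (71.8%, 67.2 to 76.1%). The share among all other nuclei was 16.3%, and with every nucleus thinned to 300 UMIs the shares were 49.9% and 8.56%.

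Levels are given as UMIs per 10000 non-viral UMIs, pooled over the nuclei of a group, and a gene is called higher or lower where the ratio of levels passes 2-fold. Against all other nuclei 11398 genes with at least 200 UMIs were compared, of which 537 were higher (4.71%) and 2257 lower (19.8%). Against other inhibitory nuclei 8336 genes with at least 50 UMIs were compared, of which 302 were higher (3.62%) and 930 lower (11.2%). A gene near these limits is expected at only a few UMIs in VIP nuclei, so many calls of single genes, above all those of lower level, lie within counting error. A gene read mostly from VIP nuclei passes the limit only through them, so the counts below describe the lists and are no support for them. Each count is to be read against the shares over all genes given here.

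Of the GABA neuron genes, 9 of 10 compared were higher than in all other nuclei and none was lower, with a median ratio of 8.38 where all genes had 0.85. Gad1 was 14.4 per 10000 in the lowest library, 16.8 at the median and 23.7 in the highest, and 1.67 to 2.53 in all other nuclei. Its ratio was 8.36 (7.67 to 9.10). The vesicular GABA transporter Slc32a1 (5.46 against 0.65) and the neuregulin receptor Erbb4 (5.13 against 0.50) were also higher in 10 of 10 libraries. Against other inhibitory nuclei, Dlx1 and Dlx2, homeobox genes of the interneuron lineage, were 2.58-fold (1.67 to 3.89) and 3.44-fold (2.32 to 5.02) higher, each in 9 libraries.

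Most caudal eminence genes were higher, and most medial ones lower, than in other inhibitory nuclei. At least 1 UMI of Adarb2, Prox1, Nr2f2, Sp8, Npas1 or Htr3a was found in 40.7% of VIP nuclei. The shares were 14.8% in NPY, 6.97% in SST and 1.35% in PV nuclei, so NPY nuclei carried part of this profile. Of the caudal genes, 4 of 5 compared were higher than in other inhibitory nuclei, with a median ratio of 9.44 where all genes had 0.90. Prox1, a homeobox gene kept on in caudal interneurons, was 1.16 per 10000 in the lowest library, 3.17 at the median and 6.16 in the highest. In other inhibitory nuclei no library went above 0.37, and the ratio was 13.7 (9.67 to 19.6). Adarb2, an RNA editing family member that marks caudal interneurons, was 0.38, 1.34 and 2.42 in the lowest, median and highest library against at most 0.29, with a ratio of 9.44 (5.87 to 15.4). The nuclear receptor Nr2f2 had a ratio of 4.73 (3.56 to 6.26) and the serotonin channel subunit Htr3a 19.0 (13.7 to 26.9). Their libraries overlapped between the groups at the low end, since 1 library had 0.39 of Htr3a and another 0.63 of Nr2f2 in VIP nuclei. Nr2f1 did not separate the groups (2.72 in VIP nuclei, 2.07 in other inhibitory nuclei).

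Of the medial genes, 4 of 5 compared were lower than in other inhibitory nuclei, with a median ratio of 0.08. Lhx6, the homeobox gene that directs the medial lineage, had 0 UMIs in VIP nuclei and 95 in other inhibitory nuclei. With a floor of 3 UMIs over all VIP nuclei (0.0916 per 10000), it was at least 4.72-fold lower. The chromatin organizer Satb1 was 0.98 against 4.25, lower in 10 of 10 libraries. Elfn1, a synaptic protein known from SST interneurons, went the other way, at 2.44 in VIP nuclei, 0.83 in other inhibitory nuclei and 3.60 in SST nuclei. The list summed to 3.88 in VIP nuclei, 3.94 in all other and 10.9 in other inhibitory nuclei.

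**Figure D1:**
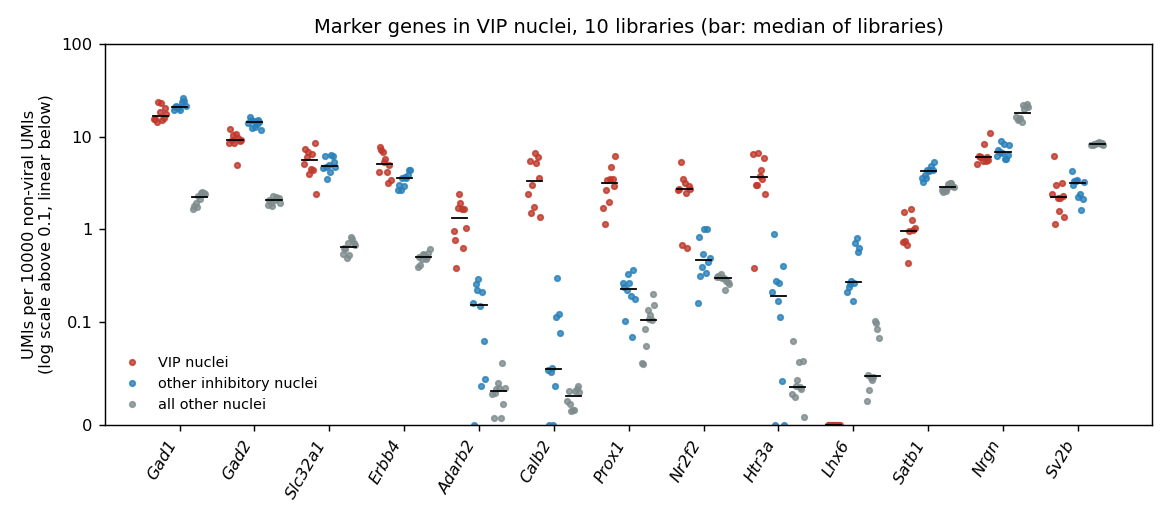
Level of marker genes (UMIs per 10000 non-viral UMIs, log scale above 0.1 and linear below) in VIP nuclei (red), other inhibitory nuclei (blue) and all other nuclei (grey), each point being 1 of 10 libraries and each bar the median of libraries. GABA genes of VIP nuclei lie near those of other inhibitory nuclei, Prox1 lies above them in every library, and Lhx6 is at 0 in every library of VIP nuclei.

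Open chromatin gave a readout that the rule did not use. Of the reference regions, 40338 held enough reads to be tested, and VIP was compared with the mean of SST and PV by edgeR's quasi-likelihood test. It called 10046 regions higher in VIP (24.9%) and 9672 lower (24.0%) at a false discovery rate of 5%. The lower count depended on the fit, at 5038 by DESeq2 (7247 higher), 2985 with no filter on reads (10738 higher), and 6384 and 5064 without VIP replicate 1 or 2. Without SST replicate 2, 15170 regions were higher. The labels do not name the animals, and by the study's methods each of the 2 replicates of a type was a separate experiment on nuclei of 1 animal. The p-values measure the spread between these samples. At the 15 genes that led VIP nuclei over other inhibitory nuclei, over the gene and 10 kb before its start, 29 of 48 tested regions were higher (60.4%) and 1 was lower. Their median log2 difference was 1.43, and that of all tested regions was -0.05. The 15 genes had been chosen by their RNA level, which the ATAC-Seq samples did not enter.

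The sequences that carry this contrast are shown for 5 of the genes, on GRCm38, the build of the deposited coordinates. Vip and Htr3a mark the cells, Prox1 marks their lineage, Asic4 is an acid-sensing ion channel subunit whose RNA led VIP nuclei, and Lhx6 is the medial counterpart. The Vip and Lhx6 sequences are the 250 bases before the RefSeq start, and the others are the 300 bases in the middle of the region with the smallest adjusted p at the gene, each on the strand of its gene. Capitals mark matches, on either strand, to short motifs. TGACG is the core of the cyclic AMP response element, TATAAA is the box bound by the general transcription machinery, and TGANTCA is the AP-1 motif. CAGATG is a motif of bHLH factors, AGGTCA one of nuclear receptors, and ATGCAAAT is the octamer of POU factors.
Vip promoter, chr10:5638968-5639217, plus strand: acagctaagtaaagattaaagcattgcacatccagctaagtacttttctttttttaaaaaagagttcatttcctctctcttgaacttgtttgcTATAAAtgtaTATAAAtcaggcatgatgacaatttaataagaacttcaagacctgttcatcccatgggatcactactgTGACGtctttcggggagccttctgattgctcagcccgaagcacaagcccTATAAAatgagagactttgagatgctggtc
Htr3a region, chr9:48903840-48904139, minus strand: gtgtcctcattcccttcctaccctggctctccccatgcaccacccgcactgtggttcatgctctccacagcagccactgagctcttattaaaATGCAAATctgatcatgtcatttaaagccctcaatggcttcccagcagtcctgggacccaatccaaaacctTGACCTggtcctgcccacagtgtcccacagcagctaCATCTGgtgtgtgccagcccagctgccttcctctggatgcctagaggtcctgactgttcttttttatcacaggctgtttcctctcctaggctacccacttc
Prox1 region, chr1:190137986-190138285, minus strand: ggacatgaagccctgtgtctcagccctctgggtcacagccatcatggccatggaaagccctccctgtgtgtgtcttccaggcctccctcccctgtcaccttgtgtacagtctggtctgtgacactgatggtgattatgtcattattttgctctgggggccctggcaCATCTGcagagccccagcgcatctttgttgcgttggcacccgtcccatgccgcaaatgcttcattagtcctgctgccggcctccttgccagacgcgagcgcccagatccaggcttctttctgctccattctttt
Asic4 region, chr1:75443482-75443781, plus strand: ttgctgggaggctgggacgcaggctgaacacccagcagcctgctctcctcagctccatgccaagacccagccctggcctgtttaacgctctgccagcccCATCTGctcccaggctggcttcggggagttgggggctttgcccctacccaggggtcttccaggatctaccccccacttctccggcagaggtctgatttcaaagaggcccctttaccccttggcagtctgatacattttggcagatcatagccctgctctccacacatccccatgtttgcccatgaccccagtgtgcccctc
Lhx6 promoter, chr2:36105409-36105658, minus strand: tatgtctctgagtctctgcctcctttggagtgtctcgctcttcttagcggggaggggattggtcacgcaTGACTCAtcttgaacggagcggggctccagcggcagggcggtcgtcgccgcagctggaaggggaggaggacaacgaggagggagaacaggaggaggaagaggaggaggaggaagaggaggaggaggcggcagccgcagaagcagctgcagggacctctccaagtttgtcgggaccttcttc

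In the Vip promoter, TGACG begins 79 bases before the start, and these letters occur in 17.8% of 32851 promoters of this length. TATAAA occurs 3 times, 1 of them 30 bases before the start, and is found in 12.4% of promoters. The Lhx6 promoter holds TGANTCA, found in 6.75%. CAGATG occurs in each of the Htr3a, Prox1 and Asic4 regions. It was found in 24.6% of windows of 300 bases at all tested regions, 30.0% of those higher in VIP and 28.1% of those lower. AACAAT, the core letters of the SOX motif, occurred in 6.30% of all tested regions, 10.0% of the higher and 4.80% of the lower ones, and TAATTA, those of homeodomain factors, in 3.80%, 5.41% and 4.11%. TGANTCA occurred in 11.0%, 12.3% and 14.2%, so that both shares lay above that of all regions. The higher regions had a median GC content of 56.0% and the lower ones 54.0%.

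The region at the Vip start (chr10:5638905-5639646), which overlaps the printed promoter, held 26 and 37 reads in the VIP replicates, 5 and 3 in SST and 0 and 2 in PV. It was higher in VIP by 3.74 on the log2 scale (adjusted p = 1.79e-05 by edgeR). A Cre driven from the Vip locus chose these nuclei, so the value at Vip checks the labels. The deposited peak lists hold a peak there in both VIP replicates, with a −log10 q-value of 32.6 and 34.8, and no peak in SST or PV. The Htr3a region (chr9:48903607-48904374), inside the gene and 7109 bases past its start, held 37 and 38 reads in VIP, 3 and 3 in SST and none in PV, a log2 difference of 5.84 (adjusted p = 1.22e-06). The Prox1 region (chr1:190137687-190138586) held 44 and 36 reads in VIP and at most 5 in any other sample (4.03, adjusted p = 4.22e-06), and 6 of 8 tested regions at Prox1 were higher. No printed window of these genes overlapped an exon.

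Other regions among the 10 with the smallest adjusted p lay at Crispld2, Asic4, Cxcl14 and Cbln2, and their VIP replicates stood apart from the other 4 samples. At Crispld2, whose product is a secreted CAP family protein, the region held 55 and 51 reads in VIP, 4 and 3 in SST and 9 and 5 in PV (3.26, adjusted p = 2.09e-06). The Asic4 region (chr1:75443289-75443976) lay before the gene and held 37 and 37 reads in VIP, 6 and 3 in SST and 5 and 3 in PV (2.96, adjusted p = 1.56e-05). At the start of Cxcl14, the gene of a chemokine, the reads were 35 and 52 in VIP, 6 and 10 in SST and 5 and 1 in PV (2.98, adjusted p = 1.47e-05). All 3 tested regions at Cbln2, the gene of a secreted synapse organizer, were higher in VIP, and 4 of 4 at Calb2 were higher.

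At Lhx6 the direction was the opposite, with 5 of 5 tested regions lower in VIP. The region at its start (chr2:36105106-36105881), which overlaps the printed promoter, held 1 and 1 reads in VIP, 39 and 32 in SST and 22 and 36 in PV, a log2 difference of -4.97 (adjusted p = 7.93e-06). Of the genes whose RNA was lowest in VIP nuclei, Crhbp had 3 of 3 tested regions lower, Nxph1 6 of 7, Eya4 4 of 5, and Tac1 its single tested region. Nog had 2 of 3 lower and Pvalb 1 of 2. Tmem132c and Cacna2d2 went both ways, with 6 of 8 and 6 of 11 regions lower and 1 higher in each. That higher region had the smallest adjusted p of its gene (Tmem132c 3.80, adjusted p = 4.82e-05, and Cacna2d2 2.31, adjusted p = 2.32e-05).

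RNA and open chromatin did not always point the same way. A region inside Pdyn, the gene of prodynorphin, held 34 and 55 reads in VIP, 3 and 4 in SST and 4 and 0 in PV (3.87, adjusted p = 5.37e-06). Yet VIP nuclei held 0 UMIs of Pdyn. Conversely, the region at the start of Adarb2 was lower in VIP, with 12 and 16 reads against 42 and 29 in SST and 52 and 34 in PV (-1.61, adjusted p = 0.00145). The tested region at Igf1, 1 of 2 at Npy2r and 2 of 4 at the cannabinoid receptor gene Cnr1 were also lower, although the RNA of these genes was higher in VIP nuclei. The Adarb2, Igf1, Npy2r and Cnr1 regions, and those given for Tmem132c and Cacna2d2, lie outside the 10 first named and were chosen after their values were seen.

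**Figure D2:**
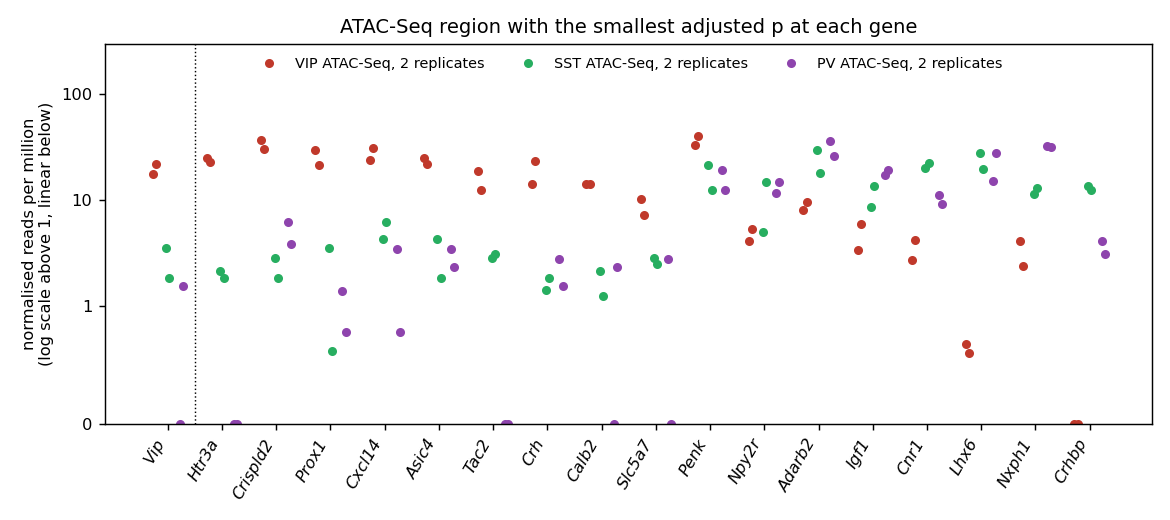
ATAC-Seq reads scaled to library size (CPM, log scale above 1, linear below) at the region with the smallest adjusted p of each gene, in 2 replicates of VIP (red), SST (green) and PV (purple). Both VIP points lie above the other 4 from Vip to Penk and below them from Adarb2 to Crhbp, which takes in Adarb2, Igf1 and Cnr1. At Npy2r they overlap the others.

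Of the peptides and transmitters, 7 of 13 genes compared were higher than in all other nuclei and 4 were lower, and 6 of 11 were higher than in other inhibitory nuclei and 4 were lower. Tac2, which encodes neurokinin B, was 8.11 per 10000 in the lowest library, 10.1 at the median and 19.4 in the highest. In all other nuclei no library went above 0.07, a ratio of 354 (283 to 447). Against other inhibitory nuclei, where the highest library had 0.83, the ratio was 63.9 (46.5 to 90.1). It was found in 142 VIP nuclei.

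Crh, the gene of corticotropin-releasing hormone, was 8.90 in the lowest library, 16.0 at the median and 27.7 in the highest, and 0.41 in other inhibitory nuclei. The ratio was 42.2 (33.7 to 53.4), and the groups did not overlap. Its binding protein Crhbp had 1 UMI in VIP nuclei and 1.52 per 10000 in other inhibitory nuclei, a ratio of 0.0200 (0.000506 to 0.112). Penk, the gene of the enkephalins, was 10.8, 19.9 and 36.7 in the lowest, median and highest library, against 0.29 to 1.46 in other inhibitory nuclei. Its ratio was 24.2 (20.5 to 28.6), and 1 nucleus held 7.13% of its UMIs.

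Among secreted factors, Pthlh (parathyroid hormone-like hormone) was 17.5-fold (12.1 to 25.8) and Igf1 (insulin-like growth factor) 12.0-fold (9.99 to 14.4) the level of other inhibitory nuclei. Pthlh stood at 2.64 or more in 9 libraries and at 0.945 in library 2-3. Cxcl14 was 11.6, 16.2 and 23.3 in the lowest, median and highest library, against at most 1.63, a ratio of 19.6 (16.6 to 23.3). Pnoc, the gene of prepronociceptin, was 28.7-fold (23.8 to 34.4) higher than in all other nuclei but did not differ by 2-fold from NPY nuclei (4.79 against 4.60). These 4 factors were higher in 10 of 10 libraries than in other inhibitory nuclei.

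Other transmitters and peptides of VIP cells gave mixed values. Cck was 6.86 to 18.6 over libraries in VIP nuclei and 7.63 to 10.1 in all other nuclei, so that these groups overlapped. It was 2.48-fold (2.19 to 2.81) the level of other inhibitory nuclei and higher there in 10 of 10 libraries. Slc5a7, the choline transporter, had 28 UMIs in 23 VIP nuclei, a ratio of 47.0 (16.4 to 184) over other inhibitory nuclei. The vesicular acetylcholine transporter Slc18a3 had 15 UMIs and the acetylcholine-making enzyme Chat had 4, the latter a ratio of 1.68 (0.408 to 5.20), for which a difference was not detectable at this depth. Npy was 6.50 in VIP nuclei and 23.5 in other inhibitory nuclei. Tac1, the gene of substance P, had 0 UMIs and was at least 18.6-fold lower than in other inhibitory nuclei, and Pdyn at least 8.94-fold lower.

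**Figure D3:**
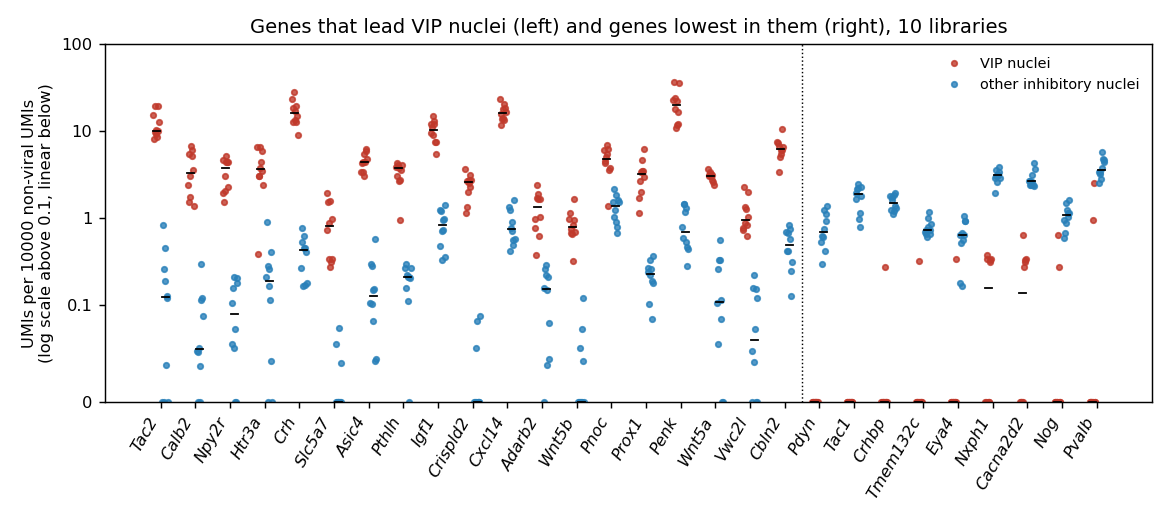
Level of the genes that led VIP nuclei (left of the dotted line) and of those lowest in them (right), in VIP nuclei (red) and other inhibitory nuclei (blue), as UMIs per 10000 non-viral UMIs in 10 libraries (log scale above 0.1, linear below; bar, median). VIP nuclei lie above other inhibitory nuclei in every library for Tac2, Crh, Penk and Cxcl14, and at 0 in every library for Pdyn and Tac1.

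The receptors of peptides and modulators were higher than in other inhibitory nuclei for 9 of 16 genes compared and lower for 1, with a median ratio of 2.84. Among receptors of neuropeptide Y, Npy2r was 1.52, 3.74 and 5.22 per 10000 in the lowest, median and highest library, against at most 0.21 in other inhibitory nuclei. Its ratio was 32.4 (20.5 to 53.2). Npy1r and Npy5r had ratios of 7.43 (5.57 to 9.93) and 11.9 (6.50 to 22.6), and each of these 3 receptors was higher in 10 of 10 libraries. The peptide itself was lower in VIP nuclei than in other inhibitory nuclei.

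Receptors of serotonin, noradrenaline and acetylcholine followed. Htr2c, a serotonin receptor, was 3.66 per 10000 against 0.43 in other inhibitory nuclei (8.48-fold, 6.43 to 11.2), and Adra1b, an adrenergic receptor, 4.91 against 0.50 (9.74-fold, 7.60 to 12.5). Chrna4, a nicotinic receptor subunit, was 1.77 against 0.54 (3.30-fold, 2.37 to 4.56). These 3 were higher in 10 of 10 libraries. The muscarinic receptor gene Chrm2 was lower, with 1 UMI and a ratio of 0.137 (0.0034 to 0.800).

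Cnr1, the cannabinoid receptor, was 20.9, 33.1 and 56.3 in the lowest, median and highest library, against 3.57 to 10.7 in other inhibitory nuclei, a ratio of 4.97 (4.61 to 5.36). Grpr, the receptor of gastrin-releasing peptide, had 33 UMIs in 32 VIP nuclei and a level 118-fold (67.7 to 209) that of all other nuclei, higher in 9 libraries. It fell under the limits on UMIs and is not in the counts. The receptors of VIP were scarce in VIP nuclei, with 16 UMIs of Vipr1 and 1 of Vipr2, while the PACAP receptor Adcyap1r1 stood at 3.60, near the 3.53 of other inhibitory nuclei.

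Of the calcium-binding and VIP subset genes, 8 of 10 compared were higher than in other inhibitory nuclei and 2 were lower. Calb2 was 1.37, 3.33 and 6.68 in the lowest, median and highest library against at most 0.30, a ratio of 42.1 (25.8 to 72.3). It was found in 16.4% of VIP nuclei at a median depth of 651 UMIs and in 0.163% of excitatory nuclei at 1238. The synaptic vesicle protein Synpr was 25.5 against 3.46, although SST nuclei had 12.3. Crispld2 was 109-fold (44.7 to 344) and Asic4 24.5-fold (17.2 to 35.7) the level of other inhibitory nuclei. The Wnt ligands Wnt5a and Wnt5b were 16.0-fold (11.0 to 23.5) and 26.9-fold (11.5 to 72.8) higher, and Cbln2 12.8-fold (10.1 to 16.2). Calb1 and Pvalb were lower, Pvalb with 11 UMIs, of which 45.5% came from 1 nucleus.

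Of potassium and HCN channel genes, 1 of 26 compared was higher than in other inhibitory nuclei and 5 were lower, with a median ratio of 0.85. Over all genes compared with other inhibitory nuclei, 3.62% were higher and 11.2% lower, with a median ratio of 0.90. Kcnc1 and Kcnc2, the Kv3 channel subunits of fast-spiking cells, were 4.27 and 2.59 per 10000 in VIP nuclei, and 9.13 and 8.85 in other inhibitory nuclei, and Kcnc1 was 16.8 in PV nuclei. Both were lower than in other inhibitory nuclei in 10 of 10 libraries, with ratios of 0.468 (0.391 to 0.556) and 0.293 (0.233 to 0.365). Of sodium and calcium channel genes, 4 of 19 were higher and 1 was lower. The lower one was the calcium channel subunit Cacna2d2, with 6 UMIs and a ratio of 0.0634 (0.0232 to 0.139), and the T-type channel Cacna1h was higher, at 0.58 against 0.15, in 9 libraries.

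Of glutamate and GABA receptor genes, 3 of 33 were higher than in other inhibitory nuclei and 7 were lower, with a median ratio of 1.04. Over all genes the shares were 3.62% and 11.2%, and the median was 0.90. The AMPA receptor subunit Gria3 was 2.35 against 5.78, lower in 10 of 10 libraries. The NMDA receptor subunit Grin3a was 0.73, against 10.3 in SST nuclei. Gabrd, a GABA receptor subunit, had 5 UMIs and a ratio of 0.177 (0.0567 to 0.420). The metabotropic glutamate receptor Grm8 was higher, at 0.98 against 0.16 (5.97-fold, 3.59 to 9.89).

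Of synaptic adhesion and guidance genes, 4 of 30 were higher and 6 were lower, where the shares over all genes were 3.62% and 11.2%. Nxph1, the gene of a secreted synaptic protein, had 5 UMIs, against 3.06 per 10000 in other inhibitory nuclei (0.0498, 0.0161 to 0.117). The guidance factors Sema3c and Sema5a were 3.59-fold (2.84 to 4.51) and 2.61-fold (2.04 to 3.32) higher, in 10 of 10 libraries each.

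Activity-dependent genes differed in direction with the group compared. Of 12 compared with other inhibitory nuclei, 4 were higher and none was lower (3.62% and 11.2% over all genes). Of 16 compared with all other nuclei, 1 was higher and 6 were lower (4.71% and 19.8% over all genes). Vgf, the gene of a secreted peptide precursor, was 13.0 against 5.40 in other inhibitory nuclei, and Fos 2.14 against 0.70 (3.05-fold, 2.27 to 4.07), higher in 8 libraries. Arc, an effector gene of active excitatory neurons, was 0.95 against 4.56 in all other nuclei, and Bdnf, a growth factor gene, had a ratio of 0.204 (0.0976 to 0.375).

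Markers of other cell types were mostly lower in VIP nuclei than in all other nuclei. None of 15 excitatory markers compared was higher than in all other nuclei and 13 were lower, and their summed level was 15.5 per 10000, against 47.0 in all other, 19.2 in other inhibitory and 57.2 in excitatory nuclei. Over libraries the sum ran from 12.2 to 18.8 in VIP nuclei and from 42.5 to 51.6 in all other nuclei. The astrocyte, oligodendrocyte, precursor, microglia and vascular lists had 5, 6, 5, 7 and 6 genes compared with all other nuclei. None was higher, and 4, 6, 2, 3 and 6 were lower. Over all genes 4.71% were higher and 19.8% lower, so lists this short would hold few higher genes in any case. The summed level of the oligodendrocyte list was 3.08 in VIP nuclei and 13.6 in all other nuclei, that of the precursor list 1.07 and 1.97, that of the microglia list 0.702 and 1.57, and that of the vascular list 0.519 and 5.30. In other inhibitory nuclei these 4 sums were 3.56, 0.705, 0.518 and 2.31. The precursor and microglia sums of VIP nuclei thus lay above those of other inhibitory nuclei, but by less than 2-fold. Over libraries of VIP nuclei they ran from 0 to 3.38 and from 0 to 1.69. The astrocyte list summed to 2.26 in VIP nuclei and 2.82 in other inhibitory nuclei. The part of these cell types in the other results was not tested. Of the markers, Olig2, Cd74, Vtn and Ly6c1 had 0 UMIs in VIP nuclei. The oligodendrocyte sum ran from 0.275 to 14.2 over libraries. Pdgfra, the receptor that defines oligodendrocyte precursors, was 4.20-fold (2.44 to 7.09) the level of other inhibitory nuclei, with 25 UMIs in 12 VIP nuclei.

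VIP nuclei also differed among themselves. Of the 415, 54 held Calb2 without Cck (13.0%, 9.93 to 16.6%), 95 held Cck without Calb2 (22.9%, 18.9 to 27.2%), 14 held both and 252 held neither. A UMI of Cck was found in 26.3% of VIP nuclei, 34.0% of all other, 53.3% of excitatory and 9.38% of SST nuclei, so the share with Cck does not set VIP nuclei apart and 1 UMI of it may be background. Nuclei with a UMI of a gene were deeper than those without, as in a median of 873 UMIs with Calb2 and 606 without, so the comparisons below use levels. The splitting genes were chosen with their levels known, and every comparison is a description.

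The 68 nuclei with Calb2 held less Cxcl14, Htr3a, Crh, Cck and Npy than the 347 without. Cxcl14 was 2.34 per 10000 with Calb2 and 20.3 without (ratio 0.115, 0.0641 to 0.192), and in no library higher with Calb2. Crh was 4.52 and 20.1 (0.225, 0.149 to 0.327), and Htr3a 0.936 and 5.05 (0.185, 0.0669 to 0.414). Slc5a7 was the reverse, at 2.96 with Calb2 and 0.341 without (8.68-fold, 3.74 to 21.8), higher in 9 libraries. Nuclei with Calb2 held 19 of the 28 UMIs of this choline transporter gene.

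Crh, Tac2 and Cxcl14 were found together. The 177 nuclei with Crh held 28.2 per 10000 of Cxcl14, against 6.32 in the 238 without (4.46-fold, 3.60 to 5.55), and 19.8 of Tac2, against 5.21 (3.81-fold, 3.00 to 4.87). They also held 7.73-fold (3.97 to 16.8) the level of Crispld2 and 4.81-fold (3.19 to 7.47) that of Pnoc. In 10 of 10 libraries Tac2, Crispld2 and Pnoc were higher with Crh than without. In nuclei with 2 UMIs of Vip, Crh, Tac2 and Cxcl14 were 7.11, 5.85 and 13.0. With 3 or more UMIs of Vip they were 17.8, 12.7 and 17.1. The part of nuclei at the edge of the rule in these ratios was not tested.

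Penk and Npy were found apart. The 180 nuclei with Penk held 1.35 per 10000 of Npy and the 235 without held 10.7, a ratio of 0.126 (0.0755 to 0.201), and in no library was Npy higher with Penk. The 58 nuclei with Npy held 2.53 of Penk against 23.4. They were richer in Cck, at 26.4 against 7.57 (3.49-fold, 2.79 to 4.35). The 65 nuclei with Htr3a held 88.9 of Cnr1 against 23.9 (3.71-fold, 3.31 to 4.17) and 24.7 of Cck against 7.12 (3.46-fold, 2.78 to 4.30). Crh was at the same level with and without Penk (17.6 and 16.6, ratio 1.06, 0.895 to 1.26).

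**Figure D4:**
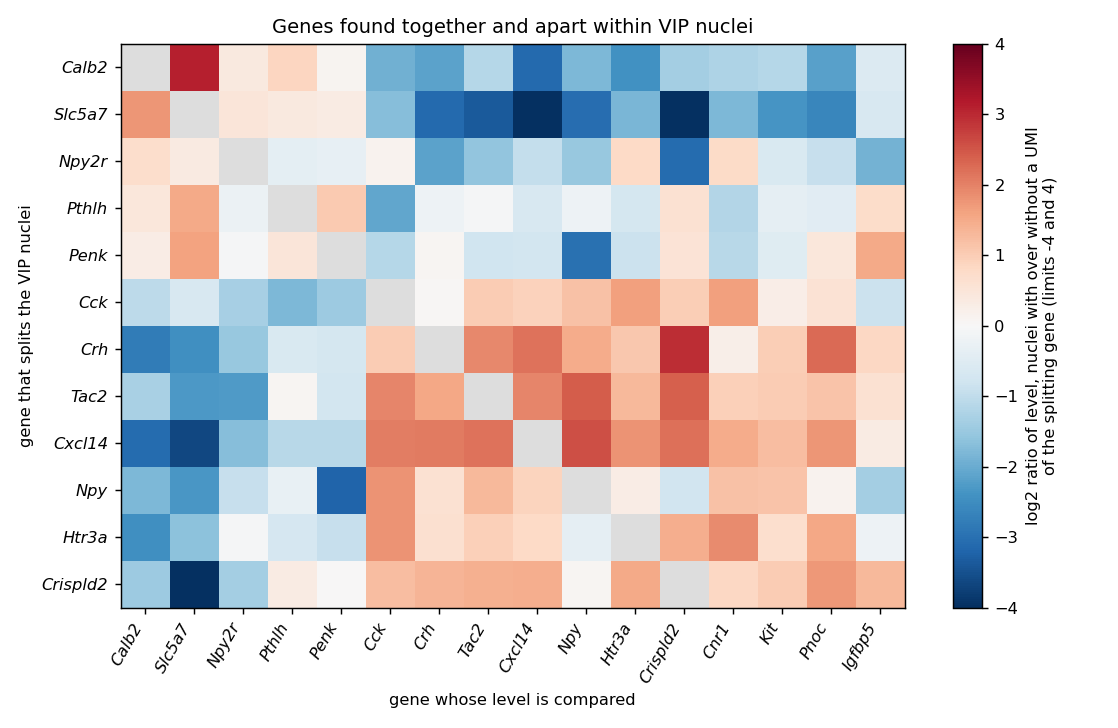
Log2 ratio of the level of each gene (columns) between VIP nuclei with and without a UMI of the splitting gene (rows), pooled over 10 libraries, with red for higher, blue for lower and grey for the gene itself. Crh, Tac2 and Cxcl14 form a red block, Calb2 and Slc5a7 are blue against Cxcl14, and Penk and Npy are blue against each other.

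The mean of viral transcripts per VIP nucleus differed from that of all other nuclei by less than the spread between libraries. By the study's methods, viral transcripts were enriched by PCR from a fraction of the amplified RNA. Viral values therefore compare groups of nuclei and do not give the abundance of viral RNA relative to other transcripts. At least 1 viral UMI was found in 91.1% of VIP nuclei and 86.0% of all other nuclei. The mean per nucleus was 16.3 (median 6, highest 203) and 15.7 (median 4). Over libraries the ratio of the means was 0.655 at the lowest, 1.02 at the median and 1.35 at the highest (SD 0.187), and lay above 1 in 6 of 10. The median per nucleus ran from 2 to 9 over libraries in VIP nuclei and from 1 to 6 in all other nuclei. It was higher in VIP nuclei except in libraries 1-2 (3.5 against 5) and 1-4 (4 against 5). Other inhibitory nuclei had a mean of 33.2, SST nuclei 48.2, PV nuclei 38.3, NPY nuclei 19.1 and excitatory nuclei 20.5. These groups differ in depth, and per 1000 non-viral UMIs the values were 20.6 in VIP, 17.9 in all other, 27.4 in other inhibitory, 46.4 in SST, 27.2 in PV, 19.5 in NPY and 14.9 in excitatory nuclei. Barcodes with at most 200 UMIs had 70.4 on that scale, and the part of viral RNA from outside the nuclei was not tested. The 10 VIP nuclei with most held 21.8% of the viral UMIs.

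Of the 287 GREs, 232 had a UMI in VIP nuclei, and the median ratio of the mean per VIP nucleus to that of all other nuclei was 0.801. The mean was higher in SST than in VIP nuclei for 263 GREs, with a median ratio of 2.78 over all GREs. All viral UMIs per nucleus differed in the same direction (48.2 in SST, 16.3 in VIP nuclei), and 55 GREs had no UMI in VIP nuclei. The count alone therefore does not show selectivity of single GREs. The 5 GREs that the study called as SST hits (GRE12, GRE19, GRE22, GRE44 and GRE80) gave 172 UMIs together in VIP nuclei. This was 0.414 per nucleus (0.355 to 0.481), against 5.10 in SST, 1.92 in PV, 0.980 in NPY and 0.793 in excitatory nuclei. SST nuclei had 12.0-fold the mean of VIP nuclei after 0.01 was added to both, and over libraries this ratio was 2.61 at the lowest and 15.5 at the median. Its highest value was 165, in library 2-3, where VIP nuclei held 1 UMI. Pooled within a library set, it was 7.63 in set 1 and 31.1 in set 2. Per 1000 non-viral UMIs it was 9.19 over all libraries. The hits were 10.7% of the GRE UMIs of SST nuclei and 2.58% of those of VIP nuclei, a smaller difference than that per nucleus. Those 5 GREs had been picked for their SST enrichment in these nuclei, so their values are a description.

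Taken singly, the hits had 16 UMIs (GRE12), 6 (GRE19), 39 (GRE22), 56 (GRE44) and 55 (GRE80) in VIP nuclei. GRE44 was the only hit with a UMI in VIP nuclei of every library, at 0.0238 to 0.500 per nucleus, against 0.481 to 2.07 in SST nuclei. Of the GRE12 UMIs, 13 came from 1 nucleus. At least 1 UMI of a hit was found in 59 VIP nuclei (14.2%) and in 45.4% of SST nuclei.

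**Figure D5:**
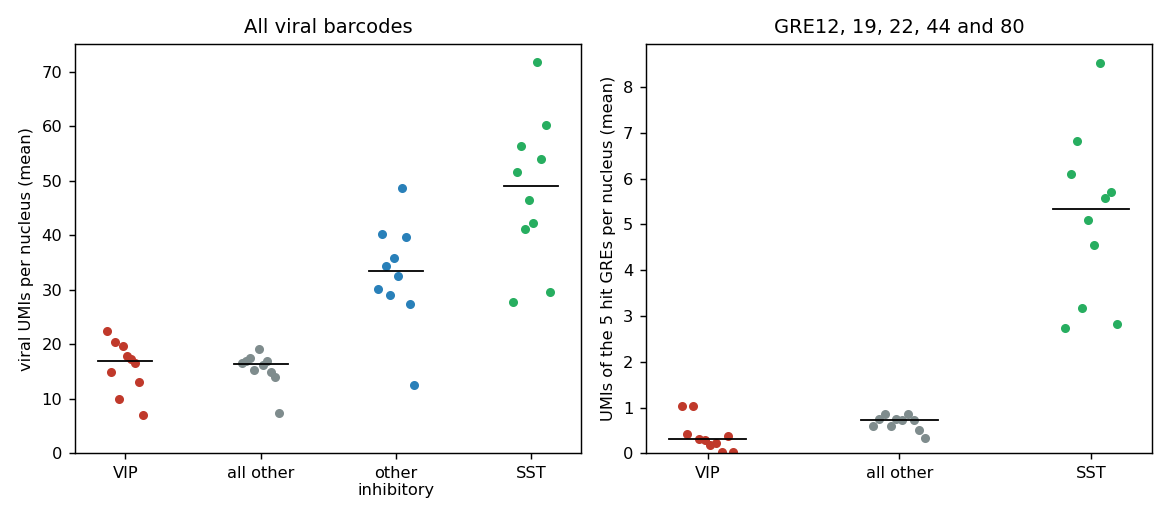
Mean viral UMIs per nucleus over all barcodes (left) and over GRE12, GRE19, GRE22, GRE44 and GRE80 (right), each point being 1 of 10 libraries and each bar the median of libraries. VIP nuclei overlap all other nuclei on the left, and lie below SST nuclei in every library on the right.

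Over all 287 GREs, 28 had at least 2-fold the mean of all other nuclei and 101 had 0.5 of it or less. Of the 66 with at least 30 UMIs in VIP nuclei, 6 had at least 2-fold, and a GRE can pass that limit through VIP nuclei alone. The highest was GRE221, with a ratio of 53.7, but its 60 UMIs came from 1 nucleus. GRE102 followed with 15.9, of which 91 of 92 UMIs came from 1 nucleus, and without that nucleus its ratio was 0.173. GRE7 was the only one of the 3 highest that was found in more than 2 nuclei, with 111 UMIs in 22 nuclei and a ratio of 3.30 (2.71 to 4.00). It was 0 in the lowest library, 0.191 at the median and 0.667 in the highest, and 0 in 3 libraries. It was higher than in all other nuclei in 6 libraries, and without the nucleus with most its ratio was 2.66. Barcodes 1, 2 and 3 gave 53, 53 and 5 UMIs, at ratios of 4.41, 4.41 and 0.523. The mean was 0.268 in SST nuclei and 0.267 in VIP nuclei, a ratio of 1.00 (0.791 to 1.28).

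GRE7 is shown as the one of the 3 highest GREs that was read from more than 1 or 2 VIP nuclei. It is intergenic, with Mir682 as the nearest gene start, and holds no match to the letters marked in the sequences above.
GRE7, chr13:75674531-75674830 of GRCm38, plus strand: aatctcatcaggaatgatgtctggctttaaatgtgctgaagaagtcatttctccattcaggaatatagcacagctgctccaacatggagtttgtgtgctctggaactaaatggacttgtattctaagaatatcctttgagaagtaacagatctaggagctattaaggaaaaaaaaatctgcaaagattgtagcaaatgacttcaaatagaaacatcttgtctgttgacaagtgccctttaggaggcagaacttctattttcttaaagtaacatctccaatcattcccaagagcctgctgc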

How the data were processed

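Nuclei were read from the deposited counts of UMIs, which the authors made without normalization from inDrops reads aligned to GRCm38 plus the barcode sequences of the virus. By the study's methods, viral transcripts were enriched by PCR before sequencing. ATAC-Seq was read from the authors' deposited read counts over reference regions of mm10, made per the submitters' processing notes with Trimmomatic 0.33, Subread 1.4.6-p3 and featureCounts. The deposited peak lists give a −log10 q-value per peak in each replicate, and the deposited table of regions gives a phyloP conservation score. Columns in which the authors give their own ratio or fold of ATAC and PESCA specificity were not used.

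Levels were pooled UMIs per 10000 non-viral UMIs with exact conditional or binomial 95% intervals. Thinning drew 300 UMIs per nucleus and left out 48 VIP nuclei. No doublet caller was run. The 6 ATAC-Seq samples held 1801883 to 2256073 reads and were fitted with edgeR 4.0.16 (quasi-likelihood, TMM, filterByExpr, Benjamini-Hochberg). Both procedures were tested on simulated data, where lowered ATAC-Seq regions were recovered less often than raised ones, and unchanged genes passed 2-fold more often as lower than as higher. Gene positions came from GENCODE and promoters from RefSeq (GRCm38).

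Named genes were members of 17 lists, the 15 with the largest fold over all other and over other inhibitory nuclei (at least 20 UMIs, higher in every library) and the 10 lowest against other inhibitory nuclei (at least 20 UMIs at the level of those nuclei, lower in every library), with the 5 hits and the 3 highest GREs, and at most 10 ATAC-Seq regions by adjusted p. Some members of these are not reported here. The members and lists were chosen with earlier results of these data known. The alternatives changed the rule for VIP nuclei, the depth and UMI limits, the libraries used and the ATAC-Seq fit.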

Additional observations from a re-analysis of the deposited data

Results flagged for a closer look

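In all, 32 groups of 10 libraries were looked at (the leading and lowest genes, the share of VIP nuclei and the viral values). Of these, 7 had 1 library far from the others. Chance flags about 1 in 20 groups where values vary smoothly. That does not hold for genes with few UMIs, so the 7 cannot be read against this rate. Pthlh was 0.945 per 10000 in VIP nuclei of library 2-3, against 2.64 or more in the other 9. The mean of the 5 SST hits in SST nuclei over VIP nuclei was 165 in library 2-3, which had 1 UMI of the hits in VIP nuclei. The other 5 were genes low in VIP nuclei, with 1 to 11 UMIs over all libraries: Crhbp was 0.275 per 10000 in library 2-2, Tmem132c 0.318 and Nog 0.636 in library 2-1, Eya4 0.342 in library 2-5 and Pvalb 2.52 in library 2-3. For Crhbp, Tmem132c and Eya4 that library held the single UMI found, so that a flag was certain.

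A viral signal also lay on 303 barcode columns that belong to no GRE, with 79 UMIs in VIP nuclei (1.17% of their viral UMIs) and 1.14% of the viral UMIs of all other nuclei.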

How the results depend on the processing

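With at least 1 UMI of Vip the share of VIP nuclei was 1.76%, and the genes lower numbered 1432 against all other and 586 against other inhibitory nuclei. With at most 1 excitatory UMI these were 0.974% and, against other inhibitory nuclei, 1402. Among 8830 genes with at least 500 UMIs, 320 were higher and 1365 lower than in all other nuclei, and with no filter 1996 and 12597 of 24493. Keeping nuclei with more than 500 UMIs gave 545 and 2154. Against other inhibitory nuclei the higher and lower counts were 471 and 1450 of 10288 genes at 25 UMIs, 174 and 483 of 5753 at 100 UMIs, 2173 and 8223 of 20466 with no filter, and 131 and 387 of 3235 after thinning. The number of genes compared changes with the filter, so these counts are not on 1 scale. The viral ratio, 1.03 as reported, lay on either side of 1: it was 0.977 above 500 UMIs per nucleus, 0.928 with at most 1 excitatory UMI, 0.985 without library 1-1, 0.489 against other inhibitory and 0.795 against excitatory nuclei, but 1.21 after thinning, 1.15 per 1000 non-viral UMIs, 1.10 without the top 1% of nuclei and 1.00 without the VIP nucleus with most viral UMIs, an alternative chosen after seeing the data. Leaving out each library gave 1.25 to 1.31% VIP nuclei, 508 to 548 higher and 2190 to 2296 lower genes against all other, 279 to 297 and 898 to 942 against other inhibitory nuclei, a viral ratio of 0.985 to 1.07 and a ratio of the hits of 10.8 to 16.0. The ratio of the hits was 7.63 in library set 1 and 31.1 in set 2. Since library 2-3 widens the SD of that ratio to 49.8, no change of it can be read against the spread between libraries.

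In ATAC-Seq, lower regions numbered 5038 by DESeq2 and 2985 with no filter, and within 2 kb of the start 14 of 24 tested regions were higher at the leading genes, fewer being tested there. Leaving out 1 replicate, with the lone sample assumed to vary like the others, gave 7303 to 15170 higher and 5064 to 11813 lower regions, and 26 to 35 at the leading genes, of 55 to 63 tested. Lower regions numbered 6384 without VIP replicate 1 and 5064 without VIP replicate 2, and higher ones 15170 without SST replicate 2. With the replicate block, 9891 regions were higher, 9250 lower and 29 higher at the leading genes. Samples of the same number correlated by -0.04 to 0.03 in their deviations from the group mean, so they share only a number. The causes of these shifts were not tested.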
